A study of Mus musculus with 23 samples.

Results

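Mbp, Mal, Pmp22, Cnp, Prx, Ncmap, Gjc3 and Lgi4 are 8 genes of myelin and of mature Schwann cells, out of 54347 genes in the deposited table. They were chosen from their levels in the same 4 groups of libraries described here, so their values are given as a description, with no test. All 8 passed the filter on low counts that 17190 genes passed. RNA was sequenced from cells of the labial cervical loop, where the ever-growing lower incisor renews its enamel epithelium, in mice at postnatal day 2. In these mice the endogenous Sox2 promoter drives green fluorescent protein. Dissociated cells with the fluorescence were sorted as Sox2-positive (dental epithelial stem cells, per the labels) and those without it as Sox2-negative. Smart-seq2 libraries were made in 2 batches, on different days and from different mice. Batch A held 6 Sox2-negative and 6 Sox2-positive libraries, and batch B held 4 and 7. All groups share the reporter line, the age and the dissection, and they differ only in the sort and the batch. No other allele is named in the labels. Whether each library of a batch is a separate mouse is not given, so p-values measure only the spread between these libraries.

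Schwann cells are the glia of peripheral nerves, and they derive from the neural crest. Those that wrap an axon with myelin are driven by Sox10 and Egr2, and they lay down compact membrane whose proteins include myelin basic protein (Mbp) and PMP22, with periaxin (Prx) anchoring the outer surface to the basal lamina. The tooth is innervated, and glia of its nerves have been described in the incisor.

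Total counts ranged from 2305778 to 9541443 over the 23 libraries, with a median of 4831091. Levels are CPM, the usual scaling of counts to library size, with totals adjusted by the TMM method, and they compare libraries for 1 gene. Between genes, only levels per length are compared. Summed over 6 epithelial markers, among them Krt14, Krt5, Epcam, Cdh1 and Trp63, Sox2-positive libraries held 3565 to 3927 CPM (batch A) and 3715 to 5705 (batch B), and Sox2-negative libraries held 144 to 390. Sox2 averaged 7.27 ± 4.41 CPM (SD, n = 6) in batch A Sox2-positive libraries and 16.4 ± 2.91 (n = 7) in batch B, with at most 1 count in any batch A Sox2-negative library and at most 10 in batch B. The 6 mesenchymal markers summed to 1206 to 1766 CPM in batch A Sox2-positive libraries and 587 to 669 in batch B, against 9880 to 12762 in Sox2-negative libraries. In batch B, the libraries numbered 1 and 2 of both populations stand apart from those with higher numbers, and values that rest on them are given below with and without them.

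Promoters of 6 of the 8 genes were taken from the RefSeq table (GRCm38.p6), in 10 windows from 250 bases before to 50 after a transcription start. 4 are shown, as the only windows among the 10 that hold the 7-letter word GTGGGNG, bound by the EGR family to which Egr2 belongs, or either of the words ACAAAG and ACAATG, bound by the SOX family. Each line gives the 250 bases before the start, 5′ to 3′ on the gene's strand, with any such word in capitals, whichever strand it reads on. The stretches lie at chr7:27499074-27499323 on the plus strand (Prx), chr5:137963099-137963348 on the minus strand (Gjc3), chr4:135398228-135398477 on the minus strand (Ncmap) and chr11:100574689-100574938 on the plus strand (Cnp).
Prx: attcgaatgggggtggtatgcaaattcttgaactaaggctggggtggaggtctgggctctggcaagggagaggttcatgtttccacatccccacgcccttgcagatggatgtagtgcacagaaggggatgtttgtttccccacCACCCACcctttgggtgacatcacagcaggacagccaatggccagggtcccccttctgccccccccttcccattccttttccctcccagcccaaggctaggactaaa
Gjc3: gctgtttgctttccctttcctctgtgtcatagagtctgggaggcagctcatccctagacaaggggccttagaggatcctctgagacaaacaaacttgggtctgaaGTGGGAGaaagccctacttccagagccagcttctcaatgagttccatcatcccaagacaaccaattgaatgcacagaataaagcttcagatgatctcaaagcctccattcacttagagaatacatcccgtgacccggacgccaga
Ncmap: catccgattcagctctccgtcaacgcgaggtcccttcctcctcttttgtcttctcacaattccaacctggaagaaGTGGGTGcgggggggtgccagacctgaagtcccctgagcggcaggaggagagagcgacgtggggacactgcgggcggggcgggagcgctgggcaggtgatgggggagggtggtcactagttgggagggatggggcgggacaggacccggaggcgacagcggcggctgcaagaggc
Cnp: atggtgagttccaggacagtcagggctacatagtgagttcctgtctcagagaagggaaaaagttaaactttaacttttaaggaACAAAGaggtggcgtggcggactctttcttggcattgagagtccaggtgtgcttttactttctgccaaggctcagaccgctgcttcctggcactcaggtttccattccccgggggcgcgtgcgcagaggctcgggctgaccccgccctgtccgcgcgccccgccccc

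The EGR word lies 107 bases before the start in Prx, on the opposite strand, 145 before it in Gjc3 and 175 before it in Ncmap. In Cnp it lies 22 bases after the start, beyond the stretch printed, and ACAAAG lies 167 before it. On either strand, GTGGGNG was in 31.6% of 32851 promoters of the same length, and ACAAAG or ACAATG in 28.6%. A match is a description of the letters. These 4 genes do not share 1 expression pattern: Prx and Gjc3 were high in batch A Sox2-positive libraries alone, and Ncmap and Cnp in the Sox2-positive libraries of both batches. No promoter of Lgi4 was found in the table. Entries on chromosome 18, where Mbp lies, were left out, so no promoter of Mbp was examined.

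The 8 genes had 1 pattern in batch A and several in batch B. In batch A each was higher in every Sox2-positive library than in any Sox2-negative one, 8 of 8, where 10.9% of all tested genes were higher with no overlap. In batch B only 3 were (Mal, Cnp and Ncmap), against 16.2% of tested genes. Pmp22 was lower with no overlap there, as were 20.3% of tested genes, and the other 4 overlapped. Since the genes were chosen from these levels, nothing is read from those counts. Summed over the 8 genes, the libraries held 94.6 to 132 CPM in batch A Sox2-negative cells, 894 to 1125 in batch A Sox2-positive cells, 176 to 211 in batch B Sox2-negative cells and 147 to 222 in batch B Sox2-positive cells. In such bulk libraries, fewer cells of a type and less RNA per cell cannot be told apart.

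**Figure D1:**
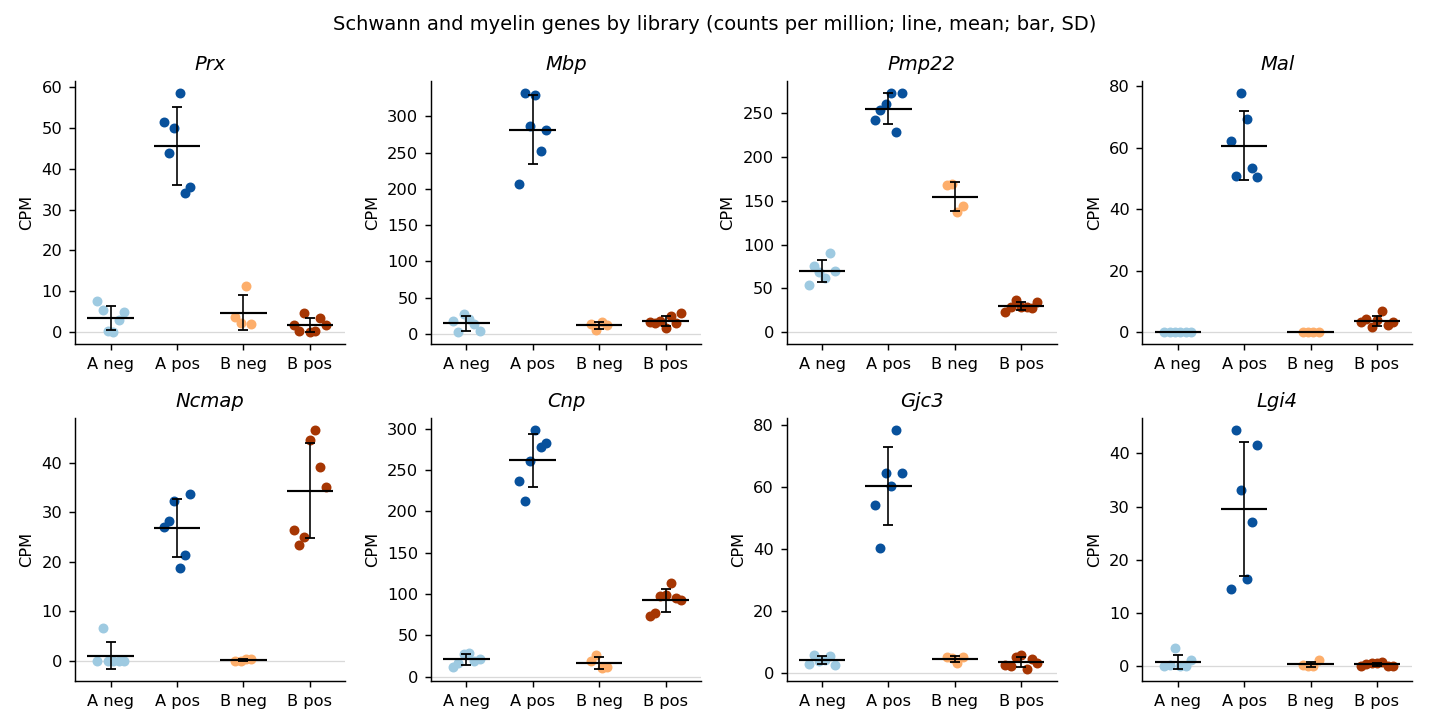
CPM of each of the 8 genes (y axes, linear) in every library of the 4 groups (A and B, batches; neg and pos, Sox2-negative and Sox2-positive; points, libraries; line, mean; bar, SD). Batch A Sox2-positive libraries are the highest group for 7 genes, while for Ncmap they overlap with batch B Sox2-positive libraries, which range from 23.4 to 46.6 CPM.

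Mbp (chromosome 18, 82475146 to 82585637, GRCm38) encodes myelin basic protein, which holds the cytoplasmic faces of the myelin membrane together. It had 207, 284 and 332 CPM (lowest, median and highest) in batch A Sox2-positive libraries and 2.14, 15.7 and 27.7 in batch A Sox2-negative ones. In batch B the Sox2-positive libraries had 8.0, 16.2 and 29.0 CPM, and the 4 Sox2-negative libraries 4.80, 11.7, 14.0 and 15.8. Batch A Sox2-positive libraries thus stood alone, and the other 3 groups overlapped. The mean was 19.7-fold higher in Sox2-positive than Sox2-negative cells in batch A (log2 fold change 4.30, SE 0.42), against 1.53-fold in batch B (0.59, SE 0.42). Between the Sox2-positive groups it was 15.9-fold lower in batch B (log2 fold change -4.01, SE 0.38). The gene has 16 annotated transcripts, and the values do not separate the classic myelin forms from the golli forms made outside myelin.

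Pmp22 (chromosome 11, 63128982 to 63159547), a small membrane protein of compact peripheral myelin that many other cells also make, was the only one of the 8 whose population difference changed sign with no overlap in either batch. It had 228, 257 and 273 CPM in batch A Sox2-positive libraries and 53.8, 69.5 and 89.9 in Sox2-negative ones. In batch B it had 23.6, 28.6 and 36.7 CPM in Sox2-positive libraries, and 137, 144, 168 and 170 in the 4 Sox2-negative ones. No 2 of the 4 groups overlapped, and the lowest was batch B Sox2-positive. The mean was 3.64-fold higher in Sox2-positive cells in batch A (log2 fold change 1.86, SE 0.13) and 5.18-fold lower in batch B (-2.37, SE 0.14). The difference between these 2 values was -4.24 (SE 0.19). Both populations contributed, in opposite directions: batch B was 8.53-fold lower than batch A in Sox2-positive cells (a log2 fold change of -3.10, SE 0.13) and 2.21-fold higher in Sox2-negative cells (1.14, SE 0.14). Of the 8 genes, 1 was higher with no overlap in batch B Sox2-negative libraries, as were 4.56% of tested genes, and it was Pmp22. In the 2 batch B Sox2-negative libraries other than 1 and 2, Pmp22 was at 137 and 144 CPM, still above every batch A Sox2-negative library.

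Mal (chromosome 2, 127633226 to 127656695) encodes a lipid raft protein of the myelin and lymphocyte family that takes part in sorting to the membrane. It had 0 counts in all 10 Sox2-negative libraries. In batch A Sox2-positive libraries it had 50.5, 57.8 and 77.9 CPM, which is at least 75.3-fold higher against a floor of 3 counts per library. Batch B Sox2-positive libraries had 1.84, 3.46 and 6.82 CPM from 8 to 30 counts, at least 7.34-fold higher than the floor. Mal therefore marked the Sox2-positive sort in both batches, at levels 16.2-fold apart (log2 fold change -4.03, SE 0.35). Its interaction of population and batch could not be estimated, since both Sox2-negative groups were at 0.

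Prx (chromosome 7, 27499324 to 27520214) encodes periaxin, the scaffold that ties the Schwann cell's outer membrane to the basal lamina through the dystroglycan complex. It had 34, 47.0 and 58.6 CPM in batch A Sox2-positive libraries and 0, 3.89 and 7.50 in Sox2-negative ones. In batch B it had 0, 1.68 and 4.6 CPM in Sox2-positive libraries and 2.04, 2.10, 3.68 and 11.3 in Sox2-negative ones. All libraries outside batch A Sox2-positive overlapped at a low level. The mean was 13.1-fold higher in Sox2-positive cells in batch A (log2 fold change 3.70, SE 0.76) and 2.79-fold lower in batch B (-1.41, SE 0.77), or 1.53-fold lower without Sox2-negative replicate 3, the library at 11.3 CPM. Between the Sox2-positive groups, batch B was 26.7-fold lower (log2 fold change -4.67, SE 0.75). An unnamed gene model on the opposite strand, Gm15541, shares 5.38% of the exon bases of Prx, and the library kit is not stated to mark strand. Gm15541 averaged 17.8 CPM in batch A Sox2-negative and 5.67 in Sox2-positive libraries. In batch B it averaged 25.4 and 8.39 CPM, also higher in Sox2-negative libraries, as the Prx mean was there. Its part in the Prx values was not tested.

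Ncmap (chromosome 4, 135369576 to 135398227) encodes the noncompact myelin associated protein, found at the paranodes and incisures of peripheral myelin. It had 18.7, 27.6 and 33.6 CPM in batch A Sox2-positive libraries and 23.4, 35 and 46.6 in batch B ones. Among Sox2-negative libraries it was at 0 in 5 of 6 in batch A and at 6.62 CPM (31 counts) in replicate 2. In batch B the Sox2-negative libraries had 0, 0, 0.326 and 0.340 CPM, at most 2 counts each. Both Sox2-positive groups were thus above all Sox2-negative libraries. Ncmap was the only one of the 8 whose Sox2-positive libraries overlapped between batches: of the others, 7 of 7 were lower in batch B with no overlap, as were 4.66% of tested genes. The batch B mean was 1.28 times that of batch A (log2 fold change 0.35, SE 0.63). The interaction of population and batch was 3.11 (SE 1.32), and it could not be estimated without batch A Sox2-negative replicate 2, which leaves that group at 0. The population difference was 24.3-fold in batch A (log2 fold change 4.49, SE 0.80), and at least 33.3-fold without Sox2-negative replicate 2, which leaves the Sox2-negative group at 0. In batch B the ratio of summed counts was 217, with an exact 95% counting interval of 84.4 to 796. Batch B Sox2-positive libraries 1 and 2 had 23.4 and 26.4 CPM, and the other 5 had 25.0 to 46.6.

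Cnp (chromosome 11, 100574904 to 100591729) encodes 2′,3′-cyclic nucleotide 3′-phosphodiesterase, an enzyme of the cytoplasmic channels of myelin. It had 213, 269 and 299 CPM in batch A Sox2-positive libraries and 12.1, 20.3 and 28.8 in Sox2-negative ones. In batch B it had 72.9, 95.1 and 113 CPM in Sox2-positive libraries and 10.6, 11.2, 19.6 and 26.4 in Sox2-negative ones. Both Sox2-positive groups were above both Sox2-negative groups, with batch B between batch A and the rest. The population difference was 12.4-fold in batch A (log2 fold change 3.64, SE 0.22) and 5.46-fold in batch B (2.44, SE 0.24), and the Sox2-positive mean was 2.83-fold lower in batch B (log2 fold change -1.50, SE 0.19). Libraries 1 and 2 of batch B had the lower Sox2-positive values, 72.9 and 77.0 CPM, and the higher Sox2-negative ones. Without them the batch B log2 fold change was 3.23, close to the batch A value, and the difference between the batches went from -1.20 to -0.46. Dnajc7 on the opposite strand shares 4.23% of the exon bases of Cnp, and its mean lay between 115 and 163 CPM in all 4 groups.

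Gjc3 (chromosome 5, 137953461 to 137963098) encodes connexin 29, a gap junction family protein of glia. It had 40.5, 62.4 and 78.5 CPM in batch A Sox2-positive libraries and 2.69, 4.20 and 5.77 in Sox2-negative ones. In batch B the Sox2-positive libraries had 1.44, 3.46 and 5.82 CPM, and the Sox2-negative ones 3.26, 4.95, 5.23 and 5.44. The 3 groups outside batch A Sox2-positive lay in 1 low band. The mean was 14.3-fold higher in Sox2-positive cells in batch A (log2 fold change 3.82, SE 0.34) and 1.27-fold lower in batch B (-0.33, SE 0.34), and 16.2-fold lower in batch B than batch A among the Sox2-positive ones (log2 fold change -4.00, SE 0.32).

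Lgi4 (chromosome 7, 31059342 to 31070935) encodes a protein that Schwann cells secrete and that acts through the receptor Adam22 in axon sorting and myelination. It had 14.4, 30.1 and 44.5 CPM in batch A Sox2-positive libraries, the widest relative spread of the 8 in that group. Batch A Sox2-negative libraries had 0, 0.107 and 3.43 CPM, and 3 of 6 were at 0. In batch B no Sox2-positive library had more than 3 counts and the Sox2-negative ones had 0, 0, 0.119 and 1.02 CPM, so no fold is given there; its fitted log2 fold change moved from -0.01 to 2.10 without Sox2-negative replicate 4. The population difference in batch A was 37.5-fold (log2 fold change 5.23, SE 0.93), and 115-fold without Sox2-negative replicate 3, which had 13 counts. The ratio of batch A to batch B Sox2-positive summed counts was 118, with an exact 95% counting interval of 61.7 to 258. Fxyd3, an epithelial ion pump regulator on the opposite strand, shares 44.9% of the exon bases of Lgi4, so reads of the 2 genes cannot be fully told apart. Fxyd3 averaged 76.3 ± 18.7 CPM (SD, n = 6) in batch A Sox2-positive libraries and 187 ± 30.3 (n = 7) in batch B ones, where Lgi4 was at or under the floor.

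**Figure D2:**
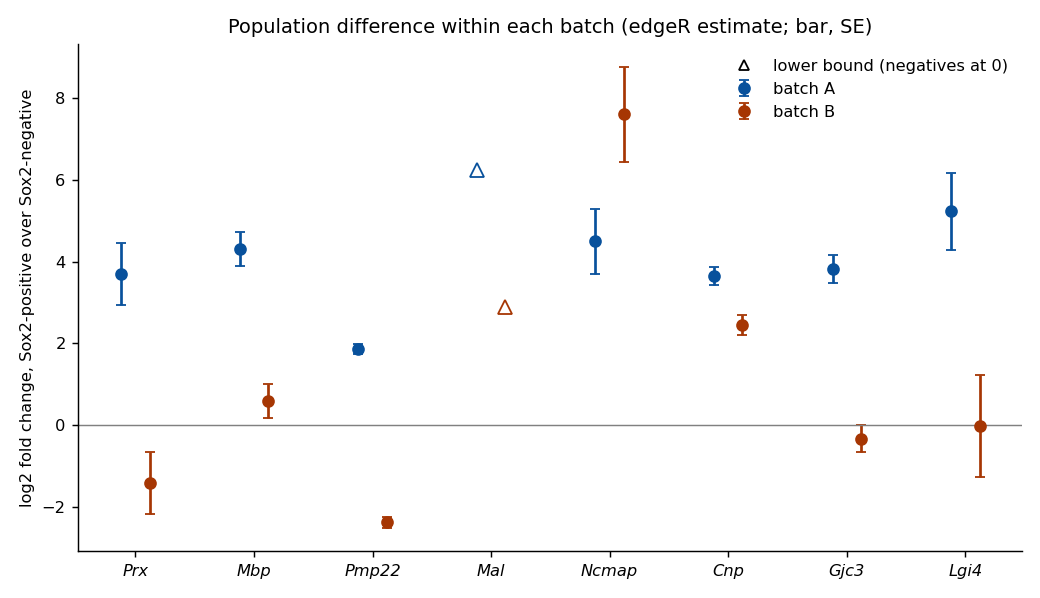
Log2 fold change of Sox2-positive over Sox2-negative libraries (y axis) for each of the 8 genes in batch A (blue) and batch B (red), with the edgeR estimate as a point and its SE as a bar. Open triangles give Mal as a lower bound, since its Sox2-negative libraries were at 0. In batch A all lie above 0, from 1.86 for Pmp22, while in batch B they run from -2.37 for Pmp22 to 7.60 for Ncmap, whose batch B value rests on at most 2 counts in each Sox2-negative library.

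Per kilobase of exon, the levels in batch A Sox2-positive libraries ran in the order Pmp22 (108 CPM per kb), Cnp (71.9), Mbp (33.3), Mal (21.9), Gjc3 (13.9), Ncmap (12.1), Prx (8.17) and Lgi4 (6.44). The libraries of Pmp22, Cnp and Mbp did not overlap with one another, nor did those of Mal and Gjc3. The neighbours Mbp and Mal overlapped, as did Gjc3 and Ncmap, Ncmap and Prx, and Prx and Lgi4, so their order is within the spread between libraries. In batch B Sox2-positive libraries the order was Cnp (25.4 CPM per kb), Ncmap (15.4), Pmp22 (12.7), Mbp (2.10), Mal (1.35), Gjc3 (0.855), Prx (0.306) and Lgi4 (0.0606). There, Cnp, Ncmap and Pmp22 stood above the other 5, and all neighbours other than Pmp22 and Mbp overlapped. The exon length of Lgi4 is its annotated union, and with the median transcript length in its place Lgi4 moved to rank 4 of 8 in batch A. With that length Mbp also stood above Cnp in batch A, at 156 and 132 CPM per kb, and Pmp22 above Ncmap in batch B, at 40.7 and 28.5. These ranks depend on which transcripts the cells make, which gene totals do not show.

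**Figure D3:**
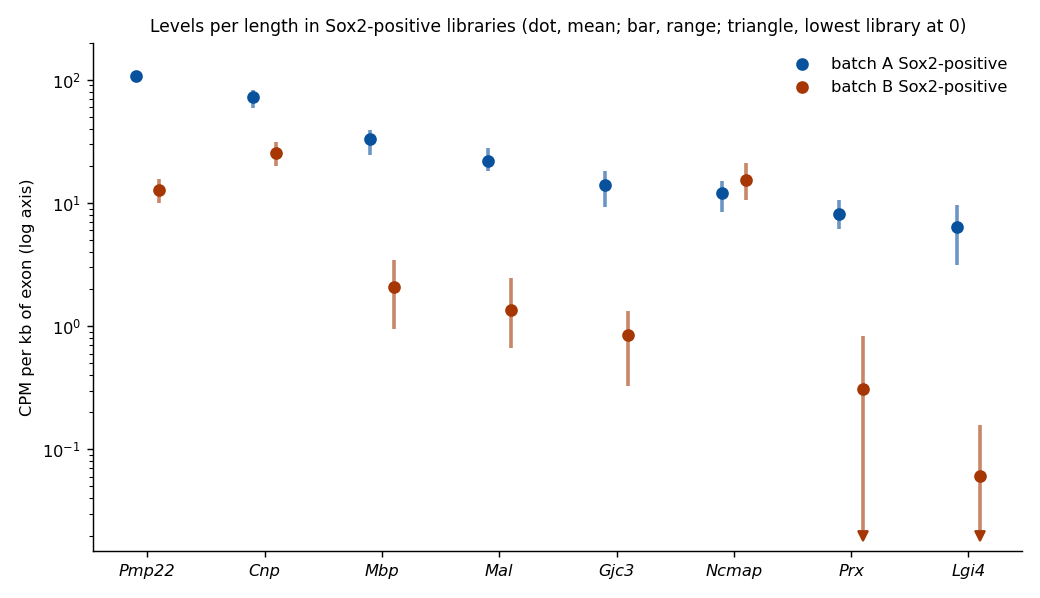
CPM per kilobase of annotated exon (y axis, log scale) for the 8 genes in batch A (blue) and batch B (red) Sox2-positive libraries; dots are means, bars the range over libraries, and triangles a lowest library at 0. Ncmap is the only gene at a like level in both groups, 12.1 and 15.4 CPM per kb, and the others are lower in batch B.

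For each of the 8 genes, the 3 genes with the most similar profile over the 23 libraries were taken from 10451 candidates with a mean of at least 10 CPM, by the root mean square (RMS) difference of centred log2 CPM. The points share libraries and batches, so the values are a description. Among the nearest of Mal were Sox10 (RMS 0.920) and Gfra3 (0.928), whose Sox2-positive mean was 137 CPM in batch A and 16.2 in batch B. Ngfr, the low-affinity neurotrophin receptor, was among the 3 nearest of Mbp, Prx, Gjc3 and Lgi4, at RMS differences of 1.07, 1.17, 0.632 and 1.31. Ncmap instead was nearest to Isl2 (0.839), Pkp2 (0.848), the desmosomal plakophilin, and Pthlh (0.917), each of which was also high in both Sox2-positive groups. Pthlh averaged 1115 and 1529 CPM in them. Cnp was nearest to Txnl4b (0.447), Cdo1 (0.574) and Moxd1 (0.575), and Moxd1 averaged 588 and 286 CPM in those groups against 44.3 and 48.8 in the Sox2-negative ones. Pmp22 was nearest to Fbln5 (0.383), the elastic fibre protein fibulin 5, at 56.0, 209, 97.1 and 27.1 CPM in batch A Sox2-negative, batch A Sox2-positive, batch B Sox2-negative and batch B Sox2-positive libraries.

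Other myelin structure genes, a list of 13 that holds none of the 8, were mostly higher in Sox2-positive cells in batch A. By edgeR's quasi-likelihood test with Benjamini-Hochberg adjustment, 10 of the 12 that passed the filter were higher at an adjusted p under 0.05 and 0 lower, beside 21.8% and 27.6% of all tested genes. Their median log2 fold change was 5.95, or 5.61 with Pmp2, which was at 0 in all Sox2-negative libraries, at its bound, against -0.13 over all tested genes. Cldn19, a claudin of Schwann cell junctions, averaged 32.1 ± 16.3 CPM (SD, n = 6) in batch A Sox2-positive libraries, with at most 2 counts in Sox2-negative ones (a log2 fold change of 7.43, SE 0.85, adjusted p 6.45e-08). Gal3st1, which makes the myelin lipid sulfatide, averaged 31.0 ± 9.15 and 0.389 ± 0.608 CPM (log2 fold change 6.19, SE 0.87, adjusted p 1.59e-06). Its ratio of means, 79.6-fold, was 147-fold without Sox2-negative replicate 2 and 121-fold without replicate 3. Mag, the adhesion protein of the axon-facing membrane, averaged 9.88 ± 2.06 and 2.08 ± 1.76 CPM (log2 fold change 2.24, SE 0.70, adjusted p 0.0121). Gjb1, the connexin 32 of mature myelin, was listed at 0 in all 23 libraries.

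In batch B the same list split. There 3 of 12 were higher in Sox2-positive cells (Gal3st1 among them) and 4 lower (Mag, Ugt8a, Nfasc and Gldn), beside 17.5% and 25.0% of tested genes, at a median log2 fold change of 0.54, or 0 with genes at 0 in 1 group at their bound. Gal3st1 was at 4.83 ± 2.62 CPM (SD, n = 7) in batch B Sox2-positive libraries and at 0.263 ± 0.525 (n = 4) in Sox2-negative ones (a log2 fold change of 4.10, SE 0.96, adjusted p 0.00111). Replicate 2 held all 7 of those Sox2-negative counts, so without it the fold is only a bound. Mag and Gldn, which gathers channels at nodes, had 0 counts in all 7 batch B Sox2-positive libraries. Mag was also low in batch B Sox2-negative libraries, at 1.26 ± 0.526 CPM (n = 4) from 4 to 12 counts, little above the floor. Gldn averaged 4.86 ± 2.04 CPM (n = 4) in batch B Sox2-negative ones (adjusted p 6.22e-06). Ugt8a, which makes the myelin lipid galactosylceramide, had 0 counts there too, and 8 counts in Sox2-negative replicate 2 with 0 in the other 3 libraries. Its call was lost without that library and without Sox2-positive replicate 2 or 3, and with DESeq2, limma-voom and the replicate block. Nfasc lost its call without batch B libraries 1 and 2.

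Of 11 regulators of myelination, 10 passed the filter. In batch A 5 were higher in Sox2-positive cells (Sox10, Pou3f1, Erbb2, Erbb3 and Dhh) and 2 lower (Nab1 and Nab2), and in batch B the same 5 were higher, and Nab2 and Adgrg6 lower. The shares of all tested genes called higher and lower were 21.8% and 27.6% (batch A), then 17.5% and 25.0% (batch B), and 2 of 10 lower is near them. The median log2 fold change was 1.80 and 0.44. Sox10, the transcription factor of neural crest glia, averaged 198 ± 35.3 CPM (SD, n = 6) in batch A Sox2-positive libraries, with at most 2 counts in Sox2-negative ones (a log2 fold change 10.05, SE 0.55, adjusted p 4.72e-13). In batch B it averaged 8.38 ± 4.77 CPM (n = 7), from 13 counts upward, against 0 in all 4 Sox2-negative libraries, at least 16.4-fold higher (adjusted p 2.56e-08). Erbb3, the neuregulin receptor of Schwann cells, averaged 73.8 ± 16.6 and 18.3 ± 5.29 CPM in the Sox2-positive groups of batch A and B. Dhh, the hedgehog ligand that Schwann cells send to the perineurium, averaged 31.9 ± 7.10 and 0.814 ± 1.59 CPM there. Its batch B call (adjusted p 0.0222) was lost without Sox2-positive replicate 6 or without Sox2-negative replicate 1, 3 or 4, and with limma-voom. Egr2 averaged 23.9 ± 4.40 CPM in batch A Sox2-positive and 5.02 ± 5.21 in Sox2-negative libraries, which did not pass (adjusted p 0.0545) but did with DESeq2, with limma-voom and without batch A Sox2-negative replicate 3, among other alternatives. The batch A calls of Nab1 and Nab2, corepressors of Egr2, were each lost under 11 alternatives, the loss of any of 6 libraries among them. In batch B, Adgrg6 lost its call without Sox2-negative replicate 4, without libraries 1 and 2 or with no filter on low counts, Erbb2 without libraries 1 and 2, and Pou3f1, Erbb2 and Dhh with the replicate block.

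The proteins that periaxin works with, a list of 10, did not move as 1 group. In batch A 4 were higher in Sox2-positive cells (Dag1, Itga6, Itgb4 and Itgb1) and 3 lower (Drp2, Utrn and Sgce), at a median log2 fold change of 0.01. In batch B 2 were higher (Itga6 and Itgb4) and 4 lower (Drp2, Utrn, Sgce and Lama2), at -0.51. Beside these counts, the shares over all tested genes were 21.8% higher and 27.6% lower (batch A), then 17.5% and 25.0% (batch B). Drp2, the dystrophin-related protein that binds periaxin directly, went against Prx in batch A: it averaged 1.69 ± 1.91 CPM (SD, n = 6) in Sox2-positive and 24.9 ± 9.07 (n = 6) in Sox2-negative libraries (a log2 fold change of -3.86, SE 0.80, adjusted p 0.000268). In batch B it averaged 1.24 ± 1.33 (n = 7) and 26.6 ± 11.1 CPM (n = 4; -4.25, SE 0.80, adjusted p 0.000108). Itga6 and Itgb4 form the laminin receptor that Schwann cells share with basal epithelium, and Itgb4 was 6.37-fold and 4.58-fold higher in Sox2-positive cells in the 2 batches (adjusted p 1.68e-07 and 1.93e-05). Dag1, the dystroglycan, was 3.42-fold higher in batch A (adjusted p 8.57e-09) and 1.08-fold in batch B (adjusted p 0.652). The batch A call of Sgce was lost under 16 alternatives, limma-voom among them.

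Most genes of the early Schwann lineage list of 10 were also higher in batch A Sox2-positive cells: 8 of 10 passed in that direction and 1, Ncam1, in the other, beside 21.8% and 27.6% of tested genes, at a median log2 fold change of 3.05. Their summed CPM overlapped between the batch A groups, at 578 to 929 in Sox2-negative and 831 to 992 in Sox2-positive libraries. In batch B 4 were higher (Cdh19, Foxd3, L1cam and Ednrb) and 3 lower (Ncam1, Tfap2a and Gap43), beside 17.5% and 25.0% of tested genes, at a median of 0.26, or -0.15 with genes at 0 in 1 group at their bound. Ngfr averaged 309 ± 18.7 CPM (SD, n = 6) in batch A Sox2-positive libraries, 33.5 ± 15.5 in Sox2-negative ones, and 30.1 ± 9.0 (n = 7) and 37.2 ± 13.4 (n = 4) in batch B, and it was called in batch A (adjusted p 1.35e-10) but not in batch B (adjusted p 0.363). Fabp7, a fatty acid binding protein of immature glia, averaged 74.3 ± 9.93 and 4.62 ± 1.66 CPM in the Sox2-positive groups of batch A and B. Ngfr and Fabp7 thus had their highest means in the group where the means of Mbp, Prx and Gjc3 were highest. In batch B, Cdh19, Foxd3 and Tfap2a lost their calls without libraries 1 and 2, Foxd3 and Tfap2a also with the replicate block, and Cdh19 and Foxd3 also with limma-voom.

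Whether the population difference itself differed between batches was tested as an interaction. Of the 34 genes in the myelin structure, regulator and periaxin lists, 32 passed the filter, and 11 had a lower log2 fold change of Sox2-positive over Sox2-negative cells in batch B than in batch A while 0 had a higher one, beside 4.22% and 2.82% of tested genes. At an unadjusted p under 0.05 the counts were 15 and 0, with DESeq2 12 and 0, and with limma-voom 14 and 0. Among the 11 were Mag, Pllp, Cldn19, Ugt8a, Cadm4, Gldn, Erbb3, Dag1, Itgb1 and Lama2. A lower value is not always a smaller difference: Lama2, the laminin chain of the Schwann cell basal lamina, went from -0.66 (SE 0.58, adjusted p 0.358) in batch A to -4.04 (SE 0.66, adjusted p 2.07e-05) in batch B, and Gldn was called in batch B alone. For Cldn19 the difference between the log2 fold changes was -8.92 (SE 1.45, adjusted p 0.000201), and for Dag1 -1.66 (SE 0.26, adjusted p 1e-04). Cldn19 had at most 2 counts in any batch A Sox2-negative library. In batch B it had at most 3 in Sox2-negative and 1 in Sox2-positive libraries. All groups other than batch A Sox2-positive were thus at or under the floor, and the size of its difference is uncertain. The count was 5 without batch B libraries 1 and 2, an alternative chosen after seeing the data, and 7 with a replicate block. Under every alternative run, 5 of the 11 kept their call, among them Mag, Cldn19, Gldn and Dag1. The call of Pllp was lost when any 1 of 14 libraries was left out, that of Itgb1 for any 1 of 5, and those of Cadm4 and Ugt8a without batch B Sox2-negative replicate 2. Lama2 lost its call under 1 alternative, without batch B libraries 1 and 2. For Sox10 the interaction was -1.63 (SE 3.20, adjusted p 0.852), an estimate too wide at its low Sox2-negative counts to show whether the batches differ. Of the early Schwann list, 6 of 10 had a lower log2 fold change in batch B, and Fabp7, Ngfr and Gap43 kept that call under every alternative. Gap43, a growth cone protein, changed sign, from 1.13 (SE 0.34, adjusted p 0.00724) to -2.47 (SE 0.37, adjusted p 6.7e-06), and Ncam1 was lower in Sox2-positive cells of both batches, at -2.39 and -3.13.

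Between the Sox2-positive groups the lists differed by batch in 1 direction. Of the 32 genes, 18 were lower in batch B and 0 higher, beside 5.54% and 4.85% of tested genes. At an unadjusted p under 0.05 the counts were 23 and 1, with DESeq2 20 and 0, and with limma-voom 21 and 1. Of the edgeR calls, 16 of the 18 kept the call under every alternative, and the other 2, Adgrg6 and Cadm4, lost it without batch B libraries 1 and 2. Myelin structure genes made up 11 of the 18, regulators 6 and the periaxin list 1 (Lama2). Cldn19 had a ratio of batch A to batch B summed counts of 553, with an exact 95% counting interval of 153 to 4576 (adjusted p 4.54e-08). Sox10 was 23.7-fold lower in batch B (adjusted p 8.96e-10) and Egr2 28.9-fold (adjusted p 0.00193), or 75.9-fold without batch B Sox2-positive replicate 7. Of the early Schwann list, 9 of 10 were lower, among them Ngfr 10.3-fold (adjusted p 1.22e-10) and Ednrb, the endothelin receptor of neural crest cells, 10.8-fold (adjusted p 1.4e-09). The integrins Itga6 and Itgb4, which epithelium also makes, were at 203 and 211 CPM and at 105 and 112 CPM in the 2 groups. The median over the 12 myelin structure genes was -6.12 on the log2 scale, or -3.61 with Mag, Ugt8a and Gldn, at 0 in batch B, at their bounds. Over all tested genes it was 0.

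**Figure D4:**
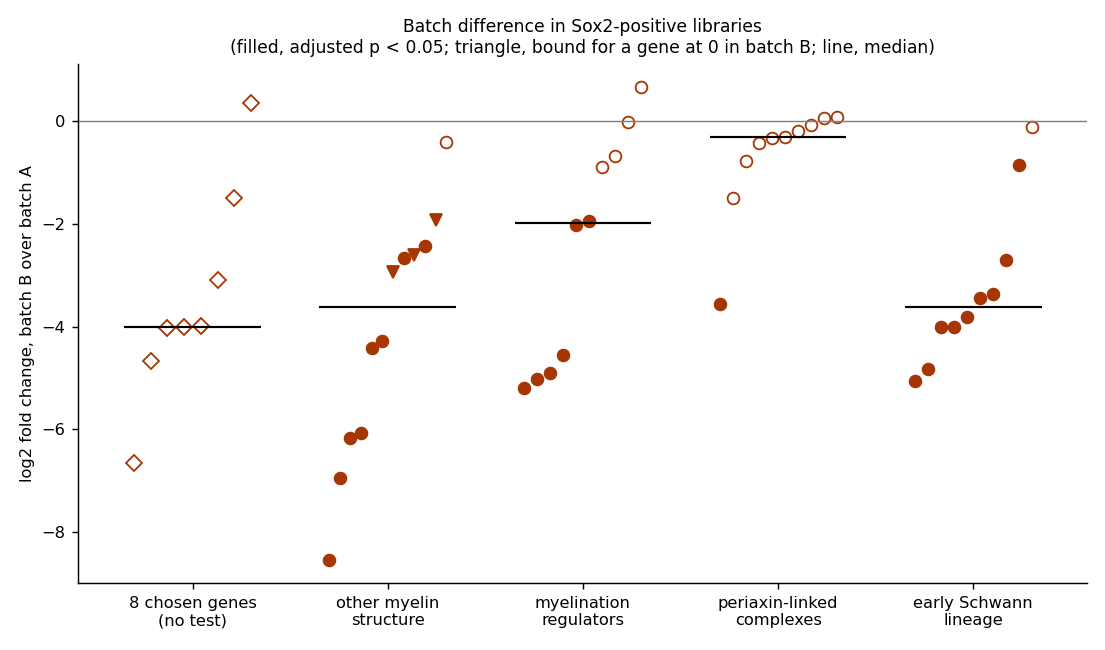
Log2 fold change of batch B over batch A in Sox2-positive libraries (y axis) for the 8 chosen genes (open diamonds, no test) and for the genes of 4 lists (filled, adjusted p under 0.05; triangles, bound for a gene at 0 in batch B; line, median). All the filled points, 18 in the first 3 lists and 9 in the early Schwann lineage, lie below 0.

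Between the Sox2-negative groups, 1 of the 32 was higher in batch B and 0 lower, beside 5.85% and 5.35% of tested genes. It was Dag1 (2.37-fold, adjusted p 7.74e-05). At an unadjusted p under 0.05, 4 were higher and 2 lower, with DESeq2 3 and 2, and with limma-voom 2 and 0. The count was 3 without batch A Sox2-negative replicate 1 or 5, and 2 without batch A Sox2-negative replicate 3 or 4, or batch B Sox2-negative replicate 2. Mbp, Cnp, Prx and Gjc3 had means within 1.37-fold of each other in the 2 Sox2-negative groups. Prx was 1.37-fold higher in batch B there, and 1.33-fold lower without replicate 3.

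Markers of other cell types were read beside these values. Of 9 oligodendrocyte genes, Mog, Olig1, Olig2 and Nkx2-2 had at most 1 count in any library. The list summed to 13.1 to 50.2 CPM in batch A and 0.359 to 3.99 CPM in batch B Sox2-positive libraries, most of it Aspa, at 26.1 ± 14.6 CPM (SD, n = 6) in batch A. Batch A Sox2-negative libraries summed to 11.1 to 43.2 CPM. Of the 3 oligodendrocyte genes that passed the filter, 1 was called higher and 1 lower in Sox2-positive cells in batch A, beside 21.8% and 27.6% of tested genes. In batch B 1 was higher and 2 lower, beside 17.5% and 25.0%. Between the Sox2-positive groups 2 were lower in batch B and 0 higher, beside 5.54% and 4.85%. The 10 neuronal genes summed to 350.03 to 469 CPM in batch A and 305 to 394 in batch B Sox2-positive libraries, but that sum was mostly Isl1 and Tubb3, which moved apart. Tubb3, a neuronal tubulin and one of the nearest genes of Pmp22, was at 154 ± 24.5 CPM (SD, n = 6) in batch A and 39.3 ± 9.72 (n = 7) in batch B (log2 fold change -1.97, SE 0.22, adjusted p 3.71e-07), and Isl1 at 242 ± 29.5 and 314 ± 35.9 (adjusted p 0.318). Nefl and Prph were at 0 in both groups. The 4 leukocyte genes summed to at most 14.5 CPM and the 4 endothelial genes to at most 5.54 CPM in Sox2-positive libraries. The 6 melanocyte genes summed to 36.8 to 57.8 CPM in batch A and 39.6 to 90.4 in batch B Sox2-positive libraries, with Mlana at 0, and the 4 erythroid genes to at most 8.05 CPM, against 572 to 749 in batch A and 30891 to 34261 in batch B Sox2-negative libraries. The mesenchymal sum was also higher in batch A than in batch B Sox2-positive libraries, with no overlap. Its genes did not move alike: Col3a1 averaged 387 ± 73.4 CPM (SD, n = 6) and 7.01 ± 5.57 (n = 7), Col1a1 424 ± 98.5 and 36.1 ± 11.5, and Col1a2 565 ± 66.8 and 546 ± 40.5. Of the 6 mesenchymal genes, 3 were called lower in batch B and 0 higher, beside 5.54% and 4.85% of tested genes. Among them were Col3a1 and Col1a1, both fibrillar collagens (log2 fold change -5.64, SE 0.35, adjusted p 4.34e-12, and -3.57, SE 0.17, adjusted p 1.54e-14). Changes of these 2 were as large as those of the 8 genes, and their part in the batch difference of the 8 genes was not tested. The median epithelial sum moved the other way, from 3728 CPM in batch A to 5394 in batch B Sox2-positive libraries. Batch B libraries 1 and 2, at 3910 and 3715 CPM, lay within the batch A range of 3565 to 3927. Of the 6 epithelial genes, 1 was called higher in batch B and 0 lower, beside 4.85% and 5.54% of tested genes. Batch is the day and the mice together, which cannot be told apart here.

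**Figure D5:**
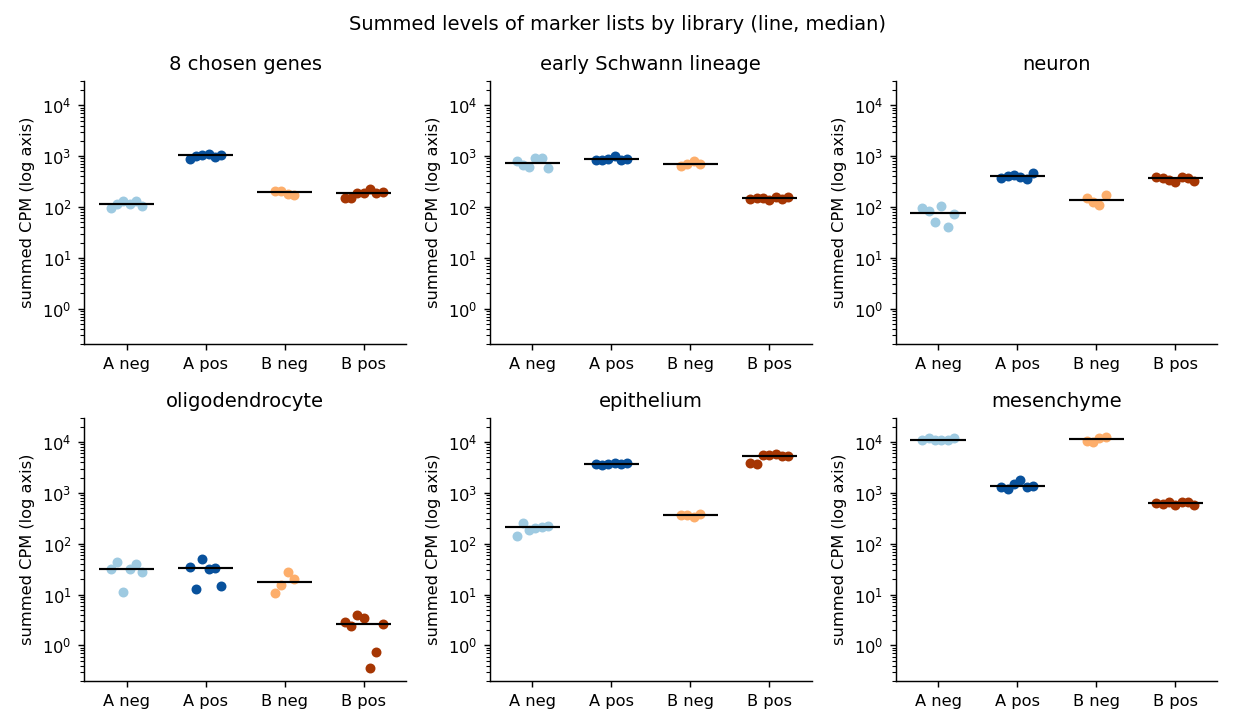
Summed CPM (y axis, log scale) of the 8 chosen genes and of 5 marker lists in every library of the 4 groups (points, libraries; line, median). The 8 genes sum to 894 to 1125 CPM in batch A Sox2-positive libraries and to 222 CPM or less in the other 3 groups, the early Schwann list has its lowest sums in batch B Sox2-positive libraries, and the epithelial list is high in both Sox2-positive groups. The early Schwann sum mixes genes called in opposite directions, Ncam1 among those lower in Sox2-positive cells, and it overlaps between the batch A groups.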

How the data were processed

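RNA was sequenced in 23 libraries, and the authors deposited 1 table of estimated counts per gene (expected counts, not whole numbers, not scaled for depth). Per the submitters' processing notes, FastQC, Trimmomatic and Salmon were used with mm10; versions and settings are not given in the sources used here. Whether counting used strand is not given there either. Ensembl identifiers were matched without their version to GENCODE M21 (GRCm38), and 54094 of 54347 matched (99.5%). Positions are from that annotation and promoters from RefSeq (GRCm38.p6). The number of unused value columns was 0.

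Counts were rounded and fitted in edgeR 4.0.16 (R 4.3.3) with TMM scaling, filterByExpr (minimum count 10) and 1 model of the 4 group means over all 23 libraries. The quasi-likelihood test was two-sided, with Benjamini-Hochberg adjustment over 17190 genes and calls at an adjusted p under 0.05. Each SE is approximate: it is the absolute log2 fold change divided by the square root of the F value of that test, and edgeR does not report it. The fit was tested on simulated data. A fold of means uses CPM; where 1 group had 1 to 3 counts per library or fewer, the ratio is of summed counts, with an exact 95% interval, and intervals and floors cover counting error only. The lowest chi-square per degree of freedom between 2 libraries of 1 group was 5.19, more than counting error alone gives, so no 2 were repeat counts of 1 library. Each library was counted on its own, but the check cannot show whether libraries come from separate mice or sorts. The 8 genes and all lists were chosen with earlier results of these data known, the lists from textbook function. Genes named are the 8, genes of those lists, the 3 nearest of each of the 8 and genes whose exons overlap them; those last were chosen after their values were seen. Some genes of the lists enter the sums and counts and are not reported here by name. Nearest genes had a mean of at least 10 CPM (prior count 2), with unnamed gene models, Xist and Y-linked genes left out. Alternatives were DESeq2 1.42.0, limma-voom (limma 3.58.1) with quality weights, RLE and total-count scaling, no filter, smaller fits, a replicate block, prior count, and each library left out.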

Additional observations from a re-analysis of the deposited data

Results flagged for a closer look

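A library stood far from the rest of its group in 3 of the 30 groups of values examined for the 8 genes. The cut-off used gives about 1 in 20 by chance for normally distributed values. The 3 groups were mostly at or near 0 counts, where that rate does not hold, so no excess over chance is read. Ncmap was at 6.62 CPM (31 counts) in batch A Sox2-negative replicate 2, with the other 5 libraries at 0. Lgi4 was at 3.43 CPM (13 counts) in batch A Sox2-negative replicate 3, with the next at 1.07 CPM, and at 1.02 CPM (6 counts) in batch B Sox2-negative replicate 4, with the next at 0.119 CPM. The 3 are different libraries, all Sox2-negative.

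The population difference of 11 other myelin, regulator and periaxin-linked genes differed between the batches by the edgeR interaction test, and for all 11 the log2 fold change was lower in batch B. For Lama2 and Gldn that made the difference larger in size, to the Sox2-negative side, though the Lama2 call was lost without batch B libraries 1 and 2.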

How the results depend on the processing

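Of 1252 log2 fold changes of the 8 genes under the alternatives, 1215 were unchanged or moved by less than the spread between libraries, and 37 moved further. Of the 1215, 909 came from fits with 1 library left out. Many of those fits left out a library outside the groups compared, so their values could hardly move, and the share is no measure of robustness. Among the 37 were fitted values of Mal, which depend on the prior count (11.27 to 7.28 in batch A), and values of Ncmap and Lgi4, where 1 Sox2-negative library holds most counts. Without batch A Sox2-negative replicate 2, that group is at 0 for Ncmap and fitted values against it set no direction, and without batch A Sox2-negative replicate 3 the batch difference of Lgi4 in Sox2-negative cells went from -1.42 to 0.13. Counts of genes called over all genes were 8502 for the population difference in batch A, 7319 in batch B, 1210 for the interaction, 1785 between Sox2-positive and 1924 between Sox2-negative groups. Without batch B libraries 1 and 2 (chosen after seeing the data) the last 4 were 4445, 481, 1159 and 754. With the replicate block the interaction gave 557, and with limma-voom 3313 genes were called between Sox2-positive groups. Fitted on each population alone, the batch differences gave 3014 in Sox2-positive and 933 in Sox2-negative cells. Of the 34 listed genes, the interaction called 11, 7 with the replicate block and 5 without batch B libraries 1 and 2, and the batch difference in Sox2-negative cells called 1, 5 with DESeq2, and 2 with limma-voom or without those libraries. With each library left out in turn, the Sox2-negative count ran from 1 to 3 (3 without batch A Sox2-negative replicate 1 or 5), and the interaction count from 8 to 13. Same-numbered libraries correlated at -0.0212 to 0.0444 after group means were removed. That check cannot show whether libraries of the same number share a mouse or a sort, so pairing is not settled. A block on replicate number changed the interaction counts given above. A difference between batches could not be fitted with it. Total-count scaling shifted the median log2 fold change of all genes by 0.153 in batch B and by -0.149 between Sox2-negative groups, and moved the higher and lower calls from 3013 and 4306 to 3656 and 3689 in batch B, from 833 and 952 to 666 and 1214 between Sox2-positive groups and from 1005 and 919 to 661 and 1388 between Sox2-negative groups; the cause of the other moves was not tested. Levels under 3 counts per library, as for Lgi4 in batch B, are at the limit of this depth.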
